A study of Mus musculus with 2 samples.

Results

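The 6 Iroquois homeobox genes of the mouse lie in 2 clusters, Irx1-Irx2-Irx4 on chromosome 13 and Irx3-Irx5-Irx6 on chromosome 8, and open chromatin across both was described in retina of mouse embryos at 14.5 days. Each cluster was taken from the first to the last gene end of the GENCODE annotation of mm10 with 100 kb added on either side. That gave chr13:71857921-73369608, a span of 1.51 Mb, and chr8:91698525-92780956, a span of 1.08 Mb. A member was any peak overlapping a span: 288 of the 165037 peaks of replicate 1 and 402 of the 219142 peaks of replicate 2, together with all 6 Iroquois genes of 21938 protein-coding genes.

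The samples were 2 biological replicates of one group, healthy retina tissue of strain B6NCrl with males and females pooled. Their labels name 1 shared donor and a biosample each, and no other genotype, treatment or age was present. Open chromatin was measured by DNase-seq, in which DNase I cuts accessible DNA in nuclei and the cut sites are sequenced. Each library has a list of peaks, which are sites of mostly 150 bp with a score, and a list of hotspots, which are wider stretches of raised cutting.

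Iroquois proteins are transcription factors of the TALE homeodomain class, the class that also holds the Meis, Pbx, Pknox and Tgif proteins. The clusters arose by duplication, so that Irx1 pairs with Irx3, Irx2 with Irx5, and Irx4 with Irx6, and their genes stand in large gene-poor intervals known to hold enhancers. In the retina Iroquois genes are known from ganglion cells, and Irx5 and Irx6 from bipolar cells. Retina at this stage is made mainly of dividing progenitors with newly born ganglion cells and other early neurons, whereas bipolar cells are born later.

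The sequences below carry the 2 findings that follow: where accessibility is highest, and an element that occurs in each cluster more than once. All are the GRCm38 reference, the assembly of mm10. The first set is the strongest peak of all in the chromosome 8 span, at the start of the noncoding gene Crnde (chr8:92356116-92356265), the Irx2 promoter peak (chr13:72628636-72628785), and the strongest distal peak shared by both libraries in each span. These last are named A1 (chr13:73160416-73160565) and B1 (chr8:92721676-92721825). Also shown are A3 (chr13:73310676-73310825), whose letters hold a match to the CTCF motif, and B4 (chr8:92362116-92362265), an exonic peak in Irx5 with an Iroquois-class match. The match in B4 lies outside the overlapping peak of replicate 2 (chr8:92362156-92362305). All are the plus strand as peaks of replicate 1, and capitals mark motif matches described further on.
Crnde start: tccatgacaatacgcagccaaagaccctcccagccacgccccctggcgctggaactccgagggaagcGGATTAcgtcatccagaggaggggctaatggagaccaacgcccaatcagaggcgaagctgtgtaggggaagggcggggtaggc
Irx2 promoter: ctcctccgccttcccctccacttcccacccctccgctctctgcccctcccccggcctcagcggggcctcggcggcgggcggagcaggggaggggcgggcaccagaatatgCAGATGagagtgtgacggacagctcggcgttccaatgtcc
A1: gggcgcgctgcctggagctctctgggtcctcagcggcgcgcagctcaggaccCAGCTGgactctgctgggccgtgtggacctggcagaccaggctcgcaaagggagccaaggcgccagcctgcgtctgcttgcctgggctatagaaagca
A3: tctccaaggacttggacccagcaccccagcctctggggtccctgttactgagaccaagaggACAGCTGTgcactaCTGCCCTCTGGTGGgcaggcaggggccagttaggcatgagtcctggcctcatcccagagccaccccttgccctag
B1: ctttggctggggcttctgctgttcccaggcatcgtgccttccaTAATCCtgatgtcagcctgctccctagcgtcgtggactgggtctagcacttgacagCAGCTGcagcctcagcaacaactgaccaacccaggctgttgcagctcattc
B4: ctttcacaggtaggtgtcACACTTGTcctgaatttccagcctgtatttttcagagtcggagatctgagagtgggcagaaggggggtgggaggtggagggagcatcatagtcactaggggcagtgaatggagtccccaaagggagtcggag

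The second set is 4 open elements of nearly the same sequence, 2 in each cluster. They are shown because their regions had the longest alignments of distal sequence between clusters, up to 420 bp (near Irx1 and near Irx6). Printed is the part common to all 4, cut to the shortest region, the peak near Irx4 with 75 bp either side. Its length is bounded by that region, and the likeness of some pairs reaches further. The elements lie near Irx1 (chr13:72028946-72029142, minus strand), near Irx4 (chr13:73116944-73117140, plus strand), near Irx3 (chr8:91805014-91805209, minus strand) and near Irx6 (chr8:92545583-92545778, plus strand). Here near names the closest protein-coding gene, which can be far away. In replicate 1 the peak covering most of each lay 65.3 kb from a start of Irx1, 143 kb from Irx4, 2.91 kb from Irx3 and 128 kb from Irx6. Capitals mark the bases identical in all 4, and lower case the rest.
near Irx1: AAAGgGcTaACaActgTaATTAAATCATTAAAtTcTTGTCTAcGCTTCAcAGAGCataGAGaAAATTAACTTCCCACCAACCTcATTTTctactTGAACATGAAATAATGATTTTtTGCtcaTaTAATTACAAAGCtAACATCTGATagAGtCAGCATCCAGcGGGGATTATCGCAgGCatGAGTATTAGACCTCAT
near Irx4: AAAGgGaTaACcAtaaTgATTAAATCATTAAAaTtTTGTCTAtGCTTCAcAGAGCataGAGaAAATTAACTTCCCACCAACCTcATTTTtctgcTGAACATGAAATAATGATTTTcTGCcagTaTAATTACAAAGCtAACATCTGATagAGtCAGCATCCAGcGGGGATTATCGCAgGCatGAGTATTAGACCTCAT
near Irx3: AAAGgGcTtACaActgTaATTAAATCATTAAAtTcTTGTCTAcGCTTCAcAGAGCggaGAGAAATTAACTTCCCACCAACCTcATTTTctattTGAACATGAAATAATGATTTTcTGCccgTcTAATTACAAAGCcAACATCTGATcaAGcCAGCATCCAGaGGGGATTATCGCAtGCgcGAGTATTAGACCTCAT
near Irx6: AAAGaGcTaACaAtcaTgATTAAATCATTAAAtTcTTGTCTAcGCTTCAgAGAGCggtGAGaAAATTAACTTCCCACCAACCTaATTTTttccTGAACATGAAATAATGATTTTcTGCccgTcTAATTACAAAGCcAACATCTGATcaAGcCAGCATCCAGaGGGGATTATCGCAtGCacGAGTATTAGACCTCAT

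Some facts of the libraries bear on every value. Replicate 2 had more peaks over the assembled chromosomes than replicate 1, 8.04 against 6.06 per 100 kb, and its hotspots covered 2.98% of the genome against 2.01%. Scores reached 144 and 150, so peaks were compared by their percentile rank within a library, where 100 is the highest score. The number of reads is not in the files, so depth is unknown. The instrument models listed for the libraries differ, and instrument and replicate cannot be told apart. Retina identity was checked at promoters, taken as the 1 kb on either side of any annotated transcription start site (TSS). All 6 markers of retinal progenitors (among them Rax and Pax6) and all 3 of ganglion cells (Atoh7, Pou4f2 and Isl1) had a promoter peak in both libraries. None of the 3 lens and none of the 3 red cell markers had one in either library. Among neighbouring tissues, 2 of 4 markers of pigment epithelium, 2 of 3 of mesenchyme and 1 of 3 of endothelium had one in both, and of the 3 microglial markers Csf1r had one in replicate 1 alone. The part of other cells in the results was not tested. In bulk tissue, fewer cells with an open site and less opening per cell cannot be told apart.

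The Irx3-Irx5-Irx6 cluster was densely covered with open sites in both libraries. It held 169 peaks in replicate 1 and 199 in replicate 2, which is 15.6 and 18.4 peaks per 100 kb (17.0 ± 1.96, mean ± SD, n = 2). These densities were 2.58 and 2.29 times the genome average of the same library. When the genome was divided into 2409 pieces of the same length, 95.8% and 95.4% of them held fewer peaks, and the median piece held 60 and 85. The cluster holds 3 protein-coding genes, and 37 and 32 of its peaks were promoter peaks. Hotspots covered 4.93% and 6.91% of it (5.92% ± 1.40, SD, n = 2).

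The Irx1-Irx2-Irx4 cluster was less densely covered, and its libraries differed more. It held 119 and 203 peaks, or 7.87 and 13.4 per 100 kb (10.7 ± 3.93, SD, n = 2). These were 1.30 and 1.67 times the genome average, and 68.7% and 83.9% of 1728 pieces of its length held fewer. Hotspots covered 2.14% and 4.77% of the span. The peak density of the chromosome 8 cluster was above that of the chromosome 13 cluster in either library, and the ranges of the pair did not overlap. With 2 libraries no test of this difference was run.

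**Figure D1:**
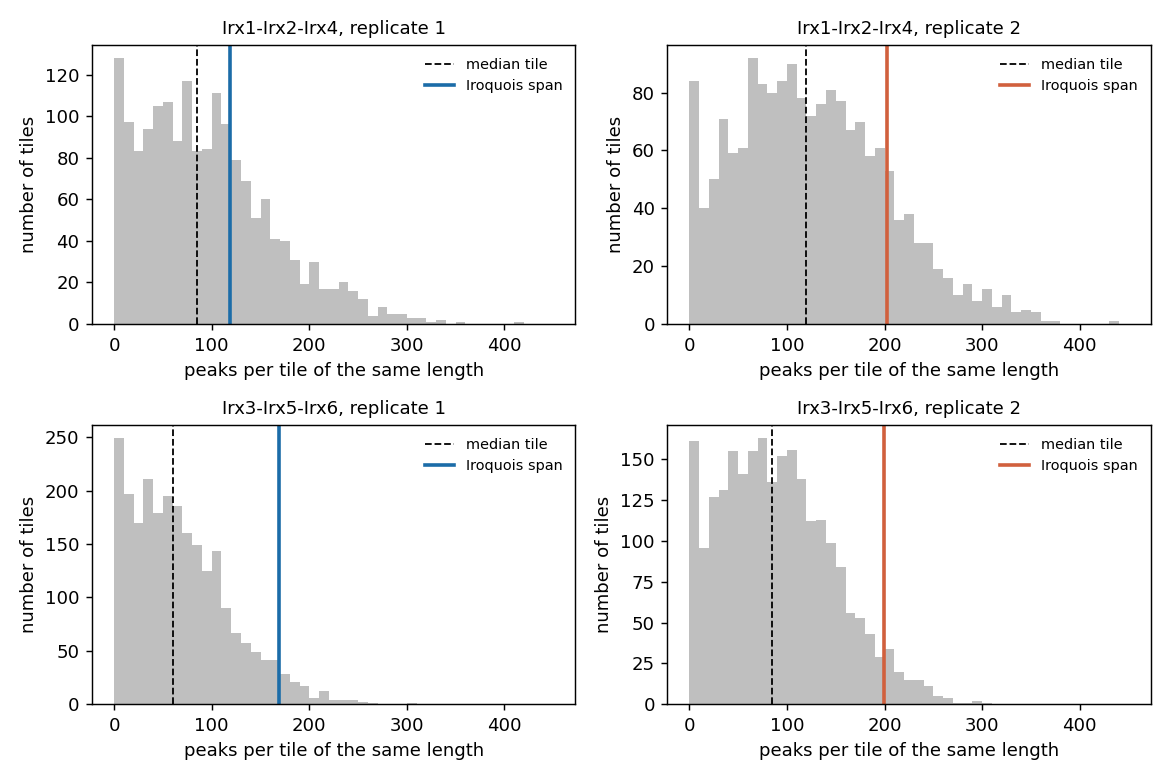
Number of peaks (x axis) in all pieces (tiles) of the genome as long as each Iroquois span (y axis, number of pieces), for each span (rows) and replicate (columns). The dashed line is the median piece and the coloured line the Iroquois span, which stands at 119 and 203 peaks for Irx1-Irx2-Irx4 and far to the right at 169 and 199 for Irx3-Irx5-Irx6.

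The excess of peaks in replicate 2 was unevenly spread over the genes. Genome-wide it had 1.33 times as many peaks as replicate 1, the Irx3-Irx5-Irx6 span had 1.18 times as many and the Irx1-Irx2-Irx4 span 1.71 times. The interval of 665 kb between Irx1 and Irx2 had 30 peaks in replicate 1 and 72 in replicate 2, a ratio of 2.40. The flank before Irx1 had 4 and 9, a ratio of 2.25, and the flank after Irx4 11 and 19, a ratio of 1.73. Between Irx2 and Irx4 the counts were 54 and 73, between Irx3 and Irx5 81 and 98, and between Irx5 and Irx6 31 and 38. In the Irx3 and Irx6 gene bodies the order was the other way, with 7 and 5 peaks in Irx3 and 6 and 5 in Irx6.

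Peaks crowded at the genes and at a few places between them. In bins of 25 kb, the highest counts of replicate 1 were 14 at Irx2 and 22 at Irx3, and those of replicate 2 were 18 at Irx1 and 22 at Irx5. Away from the genes, a bin centred 332 kb beyond the Irx1 5′ end held 7 and 17 peaks, and one 157 kb beyond it held 1 and 9. A bin centred 184 kb beyond the Irx3 5′ end held 9 and 12. In replicate 1, 23 of 61 bins of the chromosome 13 span were empty, against 13 in replicate 2. In the chromosome 8 span 8 and 3 of 44 were empty.

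The longest stretch with no peak also lay between Irx1 and Irx2. In replicate 1 it ran for 258 kb (chr13:72366126-72623815) and ended just before Irx2. Replicate 2 had 10 peaks wholly inside it, of low rank (median 19.0, highest 53.0). The longest stretch with no peak in replicate 2 was 76.03 kb, in the same interval. In the Irx3-Irx5-Irx6 span the longest were 68.3 kb and 45.0 kb.

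**Figure D2:**
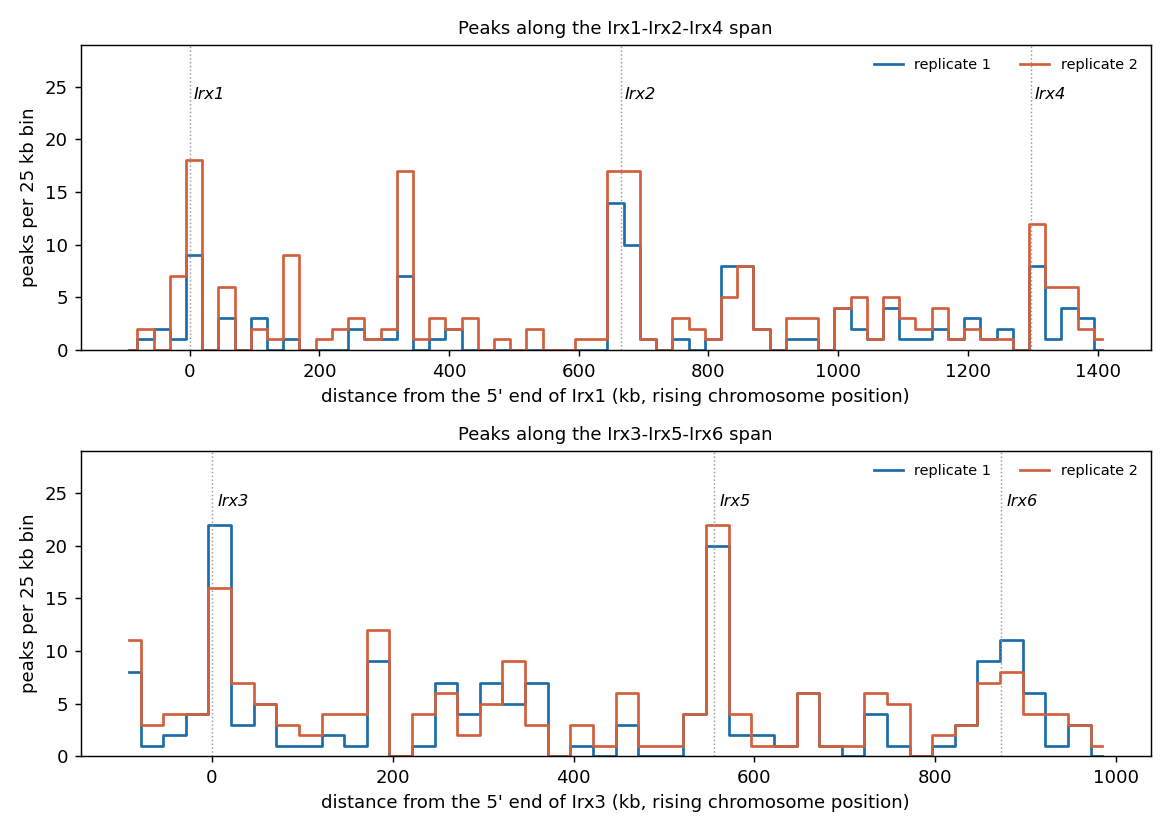
Peaks per 25 kb bin (y axis) along each span, against distance in kb from the 5′ end of its first gene (x axis); lines are the 2 replicates and dotted lines the 5′ ends of the Iroquois genes. Counts rise to 22 at Irx3 and at Irx5, and replicate 2 exceeds replicate 1 most clearly between Irx1 and Irx2.

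At the genes themselves, 5 of the 6 Iroquois genes had a promoter peak in both libraries, where 68.8% of all protein-coding genes did. The exception was Irx4, best known from the ventricles of the heart. It had no promoter peak in replicate 1 and a single one in replicate 2, of rank 59.8 (score 56). The ranks of the family were moderate: the median over all genes with a promoter peak was 94.98 in replicate 1 and 95.9 in replicate 2, and all 6 genes lay below it in each library where they had a peak.

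Irx2 had promoter ranks of 92.1 and 95.7 (93.9 ± 2.53, SD, n = 2) from a peak at −109 bp, measured from its 5′ end, the sequence shown above. Its window also takes in the start of the noncoding gene Gm20554, which therefore has the same strongest peak. Irx6 had ranks of 92.3 and 93.7, from a peak at −617 and −597 bp. Nearer the start the peaks of Irx6 were weaker, and with a window of 500 bp its mean rank was 66.5 instead of 93.0. Irx5 had ranks of 90.5 and 93.1, from a peak over its start. Irx3 had 86.2 and 93.1, from a peak 596 and 556 bp inside the gene, in a stretch shared with the antisense gene Irx3os. The ranges of Irx2, Irx6, Irx5 and Irx3 over the libraries overlapped. Within each library Irx2 and Irx6 stood above Irx5 and Irx3, in replicate 2 narrowly for Irx6 (93.7 against 93.1). Irx2 and Irx6 changed order between libraries, and no order was tested.

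Irx1 came lower, with ranks of 76.9 and 81.0 (78.9 ± 2.93, SD, n = 2), and its range did not overlap those 4. Its strongest promoter peak was the same 150 bp in both libraries (chr13:71959556-71959705), 4092 bp inside the gene near the start of a shorter transcript. At the annotated 5′ end the strongest peaks ranked 76.3 in replicate 1 and 75.4 in replicate 2, at different positions. Among all genes with a promoter peak, 14.3% and 16.8% ranked below Irx1, and 7.30% below Irx4 in replicate 2.

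Open sites were many around 5 of the 6 genes. Within 10 kb of its 5′ end, Irx3 had 24 and 20 peaks, Irx5 20 and 22, Irx2 20 and 28, and Irx6 20 and 14, where the median protein-coding gene had 3 in both libraries. Irx1 had 10 and 23, and Irx4 had 5 and 8. In all but Irx4, more peaks stood in this window than at 95.4% or more of genes. In Irx4 they exceeded 73.1% and 87.2% of genes.

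Hotspots covered 53.2% and 63.9% of the window around Irx5, the highest of the family in both libraries, and 41.2% and 43.7% around Irx3. Around Irx2 they covered 29.8% and 53.1%, around Irx6 28.5% and 22.7%, and around Irx1 16.0% and 47.5%. Irx4 was again the lowest, with 4.37% and 9.79%, near the median gene (6.70% and 8.71%). The gap between libraries was widest at Irx1, whose gene body was 39.4% hotspot in replicate 1 and 97.2% in replicate 2.

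**Figure D3:**
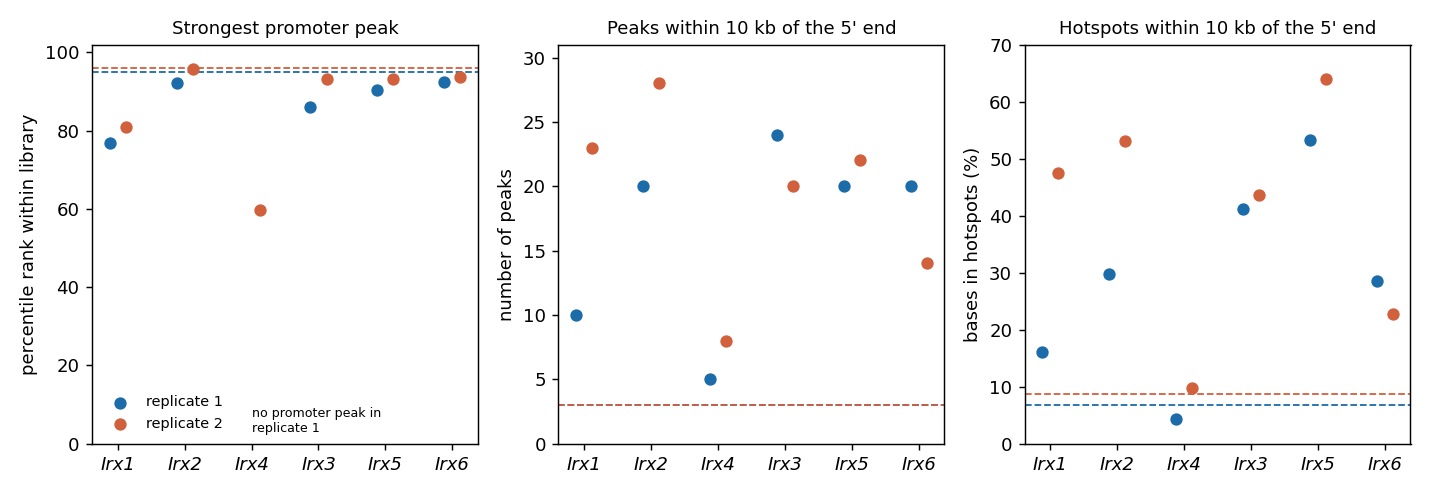
For each Iroquois gene (x axis) and replicate (colour), the rank of the strongest promoter peak, the peaks within 10 kb of the 5′ end, and the share of those bases in hotspots (y axes, left to right). Dashed lines are the medians over protein-coding genes; Irx1, Irx2, Irx3, Irx5 and Irx6 lie below the line for rank and above the lines for peaks and hotspots, and Irx4 has no promoter peak in replicate 1.

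Genes of related function gave a scale for these promoters. The 12 other TALE homeobox genes, among them Meis1, had a promoter peak in both libraries without exception, with a median rank of 96.3 and 96.9. Pknox1 was the highest at 99.7 and 99.96 and Meis3 the lowest at 88.5 and 90.4. Meis3 was still above Irx1, above Irx4 where it had a peak, and in replicate 1 above Irx3 (86.2). Of 12 ganglion cell genes all had one in both libraries (median 93.6 and 89.95). Ebf3, a transcription factor of neurons, stood at 99.3 and 97.8, and Sncg, a synuclein known from ganglion cells, at 57.9 and 69.4. Of 12 bipolar cell genes 10 had one in both (median 86.6 and 89.8 where present). Cabp5, a calcium-binding protein of mature bipolar cells, had none, and Bhlhe23, a factor of rod bipolar cells, had one in replicate 1 alone. The 5 Iroquois genes of replicate 1 and the 6 of replicate 2 had medians of 90.5 and 93.1. In hotspot cover within 10 kb the order differed, with medians of 29.1% and 45.6% for the Iroquois genes, 19.2% and 20.6% for the other TALE genes, 18.8% and 21.7% for ganglion cell genes and 10.3% and 17.4% for bipolar cell genes.

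The protein-coding genes outside the spans with the most similar values were found by distance over 6 percentiles (promoter rank, peaks and hotspot cover within 10 kb, each in both libraries). They were Eomes, Zc3hav1 and Lbx1 for Irx1, Pax9 and Foxd1 for Irx2, and Tmem253, Pou3f3 and Dmrta2 for Irx3. For Irx5 they were Olig2, Foxc2 and Sox6, and for Irx6 Sdk2, Usf2 and Tbx20. Pax9, a paired-box factor, was the closest of all to an Iroquois gene (distance 1.33), with ranks of 92.6 and 95.7 and 24 and 33 peaks. Irx4 had no near match: Pdx1 was the closest at a distance of 12.4, with no promoter peak in replicate 1 and rank 75.4 in replicate 2, followed by Tmem91 and Serpinb1b.

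The strongest peak of either span was not at an Iroquois promoter but at the start of Crnde, a long noncoding RNA transcribed away from Irx5. It ranked 99.0 in replicate 1 (score 128) and 99.3 in replicate 2 (score 140), and 1419 and 1272 peaks of the genome ranked higher. The start of Crnde lies 1505 bp from that of Irx5, so this peak fell outside the Irx5 promoter window, and 1 hotspot of 3065 bp and 4216 bp took in both starts. With a window of 2 kb it became the strongest Irx5 promoter peak, and the mean rank of Irx5 moved from 91.8 to 99.2. In the other span the strongest peak of replicate 2 was at the shared start of Ndufs6, a subunit of respiratory complex I, and Mrpl36, a protein of the mitochondrial ribosome. It ranked 93.6 and 96.6, and in replicate 1 the distal peak A1 was above it.

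Genes that are not protein-coding also had open promoters. Of these, 10 of 17 in the chromosome 8 span and 4 of 14 in the chromosome 13 span had a promoter peak in both libraries, where 17.0% of all 33475 such genes did. Some share their window with a coding gene, as Gm20554 does with Irx2 and Irx3os with Irx3. Gm36843, a lincRNA between Irx3 and Irx5, had ranks of 90.8 and 94.0, and Gm28511, in the same interval, 76.9 and 83.6. Gm40999, which starts beside the 3′ end of Irx1, had 81.7 and 90.4, and D730050B12Rik, between Irx2 and Irx4, 68.6 and 75.4. Eprn had one in replicate 1 alone, of rank 6.94. The other noncoding genes open in both libraries were Gm47902 in the chromosome 13 span (49.7 and 47.5) and 6 in the chromosome 8 span besides those named: Gm36325, Gm36380, Gm36670, Gm45332, Gm45336 and Gm45505, with ranks from 40.7 to 78.3. Gm48000 had a promoter peak in replicate 1 alone (62.9).

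Most peaks outside promoters were intergenic. Among peaks more than 1 kb from any TSS, intergenic ones were 79.8% and 86.9% in the Irx1-Irx2-Irx4 span and 70.5% and 71.9% in the Irx3-Irx5-Irx6 span, against 45.8% and 45.9% of all such peaks. Peaks ranked above 90 were few outside promoters, in the spans as elsewhere. They were 2 of 94 and 3 of 168 distal peaks (2.13% and 1.79%) in the first span and 2 of 132 and 8 of 167 (1.52% and 4.79%) in the second, against 3.33% and 4.55% of all distal peaks. Over all peaks of a span, promoters included, median ranks were near the middle, 51.5 and 50.3 in the first and 49.7 and 58.8 in the second.

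The strongest distal peaks present in both libraries, more than 1 kb from any TSS, were few. A1 ranked 95.2 and 96.1 and stood in the Irx2-to-Irx4 interval, 99.9 kb from Irx4, in hotspots of 986 and 1395 bp. A2 (chr13:72365976-72366125) ranked 90.8 and 92.8, 263 kb from Irx2, and marks the edge of the long peak-free stretch of replicate 1. A4 (83.2 and 91.5) and A5 (83.6 and 81.6) also lay before Irx4, at 143 kb and 227 kb. A3 (84.5 and 89.6) lay beyond Irx4, 17.6 kb from Ndufs6.

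In the chromosome 8 span B1 ranked 92.8 and 95.2 and stood 46.9 kb from Irx6, beyond the gene. B2 (chr8:92134216-92134365) ranked 90.8 and 94.7, in the interval between Irx3 and Irx5 and 223 kb from Irx5. B3 (89.2 and 89.6) was intronic and B4 (86.6 and 93.7) exonic in Irx5, and B5 (86.6 and 90.8) was in an exon of the noncoding gene Gm45336. These 10, chosen as the strongest, were in hotspots of both libraries whose −log10 false discovery rate was at its ceiling of 100, as 34.4% and 38.0% of all hotspots were. None of A1 to A5 had Irx1 as its nearest protein-coding gene. The 21 and 45 non-promoter peaks nearest to Irx1 ranked at most 75.7 and 82.1.

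Motif letters were searched in distal peaks on both strands: ACANNTGT (Iroquois class), TAATTA (homeodomain), CAGCTG and CAGATG (E-boxes), GGATTA (Otx class) and the CTCF motif. ACANNTGT overlaps CAGCTG in A3, where the letters read ACAGCTGT. TAATTA was in 11.7% and 11.9% of the distal peaks of Irx1-Irx2-Irx4 (11 of 94 and 20 of 168, exact 95% intervals 5.99 to 19.97 and 7.43 to 17.8) and in 9.85% and 7.78% of those of Irx3-Irx5-Irx6. Of all distal peaks, which mostly have the same width, 5.77% and 7.17% held it. The intervals cover counting error only and treat peaks as independent. Some peaks of a library overlap one another and can count the same letters again, and the libraries share sites, so they are not separate observations. For the first span the lower bound was narrowly above the share of all distal peaks in both libraries (5.99 against 5.77 and 7.43 against 7.17). For the second it was above in neither (5.35 and 4.21). Whether the letters are enriched was not tested.

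For the other motifs the intervals of both spans took in the share of all distal peaks, except ACANNTGT in replicate 1. It was in 11.7% of the distal peaks of Irx1-Irx2-Irx4 in replicate 1 (interval 5.99 to 19.97) and 6.55% in replicate 2, against 5.85% and 6.002%, and in 5.30% and 6.59% of those of Irx3-Irx5-Irx6. The CTCF motif was in 1 and 2 distal peaks of the first span (1.06% and 1.19%) and 1 and 1 of the second (0.758% and 0.599%), against 2.47% and 1.88% of all distal peaks. A match says only that the letters are present.

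The 4 alike elements came from comparing all open regions of the spans with one another (blastn, E-value up to 1e-05). Of 140 merged peak regions of Irx1-Irx2-Irx4, 7 resembled a region of the other cluster, and of 132 of Irx3-Irx5-Irx6, 6 did. Of these, 4 and 4 overlapped an Iroquois gene. Apart from the matches of promoters and exons of Iroquois genes among themselves, 2 groups remained, the set of 4 and a pair sharing 52 bp at 86.5% identity. The pair joined a peak 94.7 kb from Irx2 (chr13:72727316-72727465, ranks 71.0 and 81.0) with a peak region in an Irx5 intron (chr8:92366876-92367185, 76.9 and 79.9), and Irx2 and Irx5 are paralogues. In the Irx5 intron these ranks belong to different peaks of the 2 libraries, which lie 10 bp apart and do not overlap. By single peaks, the match was found with the replicate 1 peak alone.

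Over the aligned 197 columns, 162 (82.2%) were identical in all 4 elements, with an unbroken run of 21. Within a cluster the element near Irx3 and the one near Irx6 shared 92.4%, and the elements near Irx1 and Irx4 shared 90.9%. Between clusters identity ran from 85.8% (Irx4 and Irx3) to 91.4% (Irx1 and Irx3). In each cluster one copy is on the minus strand and the other on the plus strand. A search of the assembled chromosomes at the same E-value found these 4 places and 0 others.

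Each copy was open in both libraries, and the peak covering most of it had a middling rank. Other peaks of the merged regions ranked higher around the copies near Irx3 (82.2 and 81.6) and near Irx6 (80.7 and 87.8). The peak covering most of the element near Irx1 ranked 53.3 in replicate 1 and 71.5 in replicate 2, and that near Irx4 65.0 and 75.4. The one near Irx3, within an exon of the antisense noncoding gene Irx3os, ranked 66.0 and 72.9, and that near Irx6 65.0 and 71.5. All 4 ranked higher in replicate 2, as shared peaks did in general (median difference 5.55 percentiles over the genome). In replicate 1 the element near Irx1 was the lowest. Whether reads from such similar sequences could be placed uniquely was not tested.

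All 4 elements hold the Otx-class letters GGATTA. All 4 also hold CAGATG on the reverse strand and at least 1 copy of the homeodomain letters TAATTA. Those near Irx1 and Irx3 also hold ACAACTGT, an Iroquois-class match. Among all distal peaks widened to the same length, 7.45% and 8.07% hold the Otx-class letters, 20.4% and 20.9% that E-box, 7.62% and 9.14% the homeodomain letters and 7.65% and 7.84% the Iroquois-class letters. The 4 sequences are copies of one another, so their shared letters are not separate observations.

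Overlap between replicates was near that of all peaks when counted from replicate 1. Of the replicate 1 peaks, 87 of 119 (73.1%) in Irx1-Irx2-Irx4 and 118 of 169 (69.8%) in Irx3-Irx5-Irx6 were overlapped by at least 1 bp of a replicate 2 peak, against 73.2% of all. Of the replicate 2 peaks, 87 of 203 (42.9%, exact 95% interval 36.0 to 49.97) and 115 of 199 (57.8%, interval 50.6 to 64.7) were overlapped by replicate 1, against 53.9% of all. Among replicate 1 peaks ranked above 50 the shares were 82.5% (interval 70.9 to 90.9) and 86.9% (77.8 to 93.3), against 93.8% of all such peaks. Shared peaks had medians of 57.9 and 63.7 in the first span and 58.6 and 65.5 in the second, against 61.7 and 70.8 over the genome.

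Peaks found in one library alone had median ranks of 36.6 and 38.4 in Irx1-Irx2-Irx4 and 32.3 and 38.4 in Irx3-Irx5-Irx6, against 17.4 and 27.6 over the genome, and the strongest of them lay close to a peak of the other library. Of all replicate 1 peaks without a partner, 34.7% lay in a hotspot of replicate 2, and of all such replicate 2 peaks 10.3% lay in a hotspot of replicate 1. In Irx1-Irx2-Irx4 the counts were 19 of 32 (59.4%) and 6 of 116 (5.17%), and in Irx3-Irx5-Irx6 24 of 51 (47.1%) and 21 of 84 (25%). The strongest without a partner was at the Crnde start in replicate 1 (rank 97.3), 130 bp from a replicate 2 peak. In replicate 2 it was at Gm36843 (rank 91.1), also 130 bp from a replicate 1 peak. In Irx1-Irx2-Irx4 the strongest alone were at the Irx1 start in replicate 1 (76.3) and within Irx2 in replicate 2 (76.6), 10 and 110 bp from a peak of the other library. The next of replicate 2, 218 kb before Irx4 (chr13:73041916-73042065, rank 76.02), was 370 bp from the nearest replicate 1 peak and outside its hotspots.

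**Figure D4:**
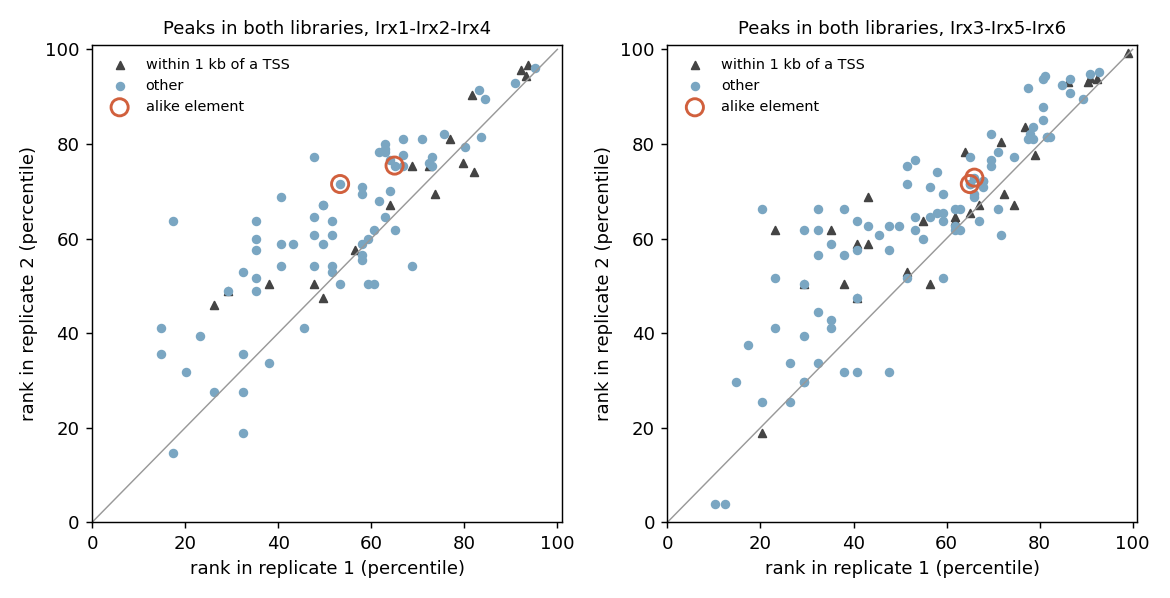
Percentile rank in replicate 1 (x axis) and replicate 2 (y axis) of the 87 and 118 replicate 1 peaks that a replicate 2 peak overlaps, in the Irx1-Irx2-Irx4 span (left) and the Irx3-Irx5-Irx6 span (right). Triangles are peaks within 1 kb of a TSS, circles the other peaks, rings the 4 alike elements (ranks 53.3 to 66.0 and 71.5 to 75.4), and the line is equal rank.

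Other clusters of homeobox genes, bounded in the same way, were more densely covered than either Iroquois span in both libraries. The denser of these spans, Irx3-Irx5-Irx6, had 15.6 and 18.4 peaks per 100 kb. Hoxa, whose genes pattern the body axis, had 24.2 and 43.9 peaks per 100 kb and Hoxd 38.1 and 20.9. Dlx1-Dlx2, known from retinal ganglion and inhibitory neurons, had 27.0 and 32.9, and Dlx5-Dlx6 16.9 and 36.6. Their spans are far shorter (0.219 to 0.305 Mb), so genes make up more of them, and the SD between libraries was 12.1 to 13.9 in Hoxa, Hoxd and Dlx5-Dlx6 and 4.20 in Dlx1-Dlx2, against 3.93 in Irx1-Irx2-Irx4 and 1.96 in Irx3-Irx5-Irx6. No test of these differences was run.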

How the data were processed

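DNase-seq libraries of E14.5 retina (2 replicates, 1 group) were compared by description, with no test. Peaks and hotspots were called by the authors per library on mm10, per the deposited file lists and the labels; aligner, caller and filters: not given in the sources used here. For peaks, the deposited score is a number whose meaning is not stated, and it was used only to rank peaks within a library, ties sharing their mean rank. The hotspot value is the authors' −log10 false discovery rate, deposited from 1.30 up to a ceiling of 100. Exact duplicate lines (34 and 56) were removed, and peaks off the assembled chromosomes were left out. Some scores (12.1% and 7.79%) were written in decimal form and kept.

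Genes came from GENCODE on GRCm38. A peak's nearest protein-coding gene is a matter of distance and may not be its target. Open regions were compared with blastn 2.17.0 and the 4 elements aligned with MAFFT 7.526; other steps used Python 3.11.15, pandas 2.3.3, SciPy 1.17.1 and pysam 0.24.0, and overlap and distance code was tested on simulated data. Depth is unknown, so no detection limit was computed. Shares carry exact Clopper-Pearson 95% intervals.

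Named were the 6 Iroquois genes, other genes in the spans that are protein-coding or hold a promoter peak, the 5 strongest shared distal peaks per span, the 3 strongest peaks per span and library found in one library alone (of which the strongest are given), and the 3 nearest genes by likeness; some items are not reported here. Members and lists were chosen with earlier results of these data known. The comparison of sequences between clusters, the Crnde peak, the named bins and the long peak-free stretch were added after the data were seen. Alternatives changed the flank, promoter window, overlap, hotspot and rank thresholds, duplicates and the replicate used.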

Additional observations from a re-analysis of the deposited data

How the results depend on the processing

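Under the alternatives, 28 recomputed values of the main results moved by less than the spread between replicates or within the exact interval, and 8 moved by more. The 28 include means recomputed without 1 replicate. With 2 libraries such a mean always moves by less than their SD, so these values say nothing about stability. With only peaks ranked above 50, densities were 5.49 peaks per 100 kb in Irx1-Irx2-Irx4 and 9.56 in Irx3-Irx5-Irx6, and overlap of replicate 1 peaks was 82.5% and 86.9%. With an overlap of at least 75 bp these shares were 61.3% and 50.9%. Without peaks whose score was written in decimal form, an alternative chosen after seeing the data, the density of Irx3-Irx5-Irx6 was 14.9. With hotspots of value at least 10, cover of that span was 3.56%. Leaving out either replicate gave densities of 7.87 to 13.4 and 15.6 to 18.4 peaks per 100 kb, hotspot cover of 2.14% to 4.77% and 4.93% to 6.91%. The count of Iroquois genes open in both libraries was 5 with every promoter window, start and rank threshold tried, and 2 mean ranks of single genes moved by more than the spread: Irx5 with a window of 2 kb and Irx6 with 500 bp. No mean rank was computed for Irx4, which had a promoter peak in 1 library. No paired analysis was possible because there is 1 group. Limits: 2 libraries, unknown depth, and a score of unstated meaning, so values say where sites are open and not how strongly a gene is used.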
